A study of Mus musculus with 18 samples.

Results

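Selenoproteins are proteins that contain selenocysteine, the selenium analogue of cysteine. Described here are Selenov and 8 other selenoprotein genes, Selenow, Selenop, Selenot, Selenom, Selenoh, Gpx1, Gpx4 and Txnrd1, in adult mouse brain cortex. The 9 genes were listed by symbol and all were found among the 55385 genes of the deposited table, and all 9 passed the filter on low counts that left 18717 genes. Selenov was chosen by its own measured values, a level about 3-fold higher in both duplication genotypes than in WT, so its values against WT are a description and carry no test. The other 8 genes were set beside it for comparison, and the remaining 15 of the 24 mouse selenoprotein genes are given by ranges.

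Polyadenylated RNA was sequenced from 18 libraries. The 6 Dp16 libraries come from mice with a segmental duplication of chromosome 16, a model of trisomy 21, which puts the genes of the segment at 3 copies. The 6 Dp16_2xIFNRs libraries come from mice with the same duplication in which the interferon receptor gene cluster is back at 2 copies. The 6 WT libraries come from wild-type C57BL/6J mice. Each genotype holds 3 males and 3 females, and no treatment is given for any group. Ages ran from 17.1 to 18.0 weeks in Dp16 and in WT, and from 17.7 to 18.0 weeks in Dp16_2xIFNRs. Totals ran from 46346019 to 67281449 counts in Dp16, from 47912340 to 61150849 in Dp16_2xIFNRs and from 47554526 to 52006799 in WT. The labels do not say whether the libraries of a group come from separate litters, and p-values measure the spread between these samples only.

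The genotypes and the tissue were checked on the counts. The 115 tested genes of the duplicated segment had a median fold of 1.46 in Dp16 and 1.47 in Dp16_2xIFNRs against WT. The receptor gene Ifnar1 averaged 64.6 CPM (the count scaled to library size) in Dp16, 45.7 CPM in Dp16_2xIFNRs and 44.3 CPM in WT. All 5 excitatory neuron, 5 GABAergic neuron, 5 astrocyte and 5 oligodendrocyte markers were detected. Dp16 replicate 3 and WT replicate 5 stood apart by choroid plexus markers, with summed levels of 378 and 194 CPM, against 5.03 to 39.1 CPM in the other 16 libraries. WT replicate 6 had the lowest summed astrocyte, microglia and endothelial markers of the WT libraries. In bulk tissue, fewer cells of a type and less RNA per cell cannot be told apart.

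As background, selenocysteine is inserted at a UGA codon, which otherwise ends translation. A stem-loop in the 3′ untranslated region of the mRNA (the SECIS element) recruits Secisbp2, and the elongation factor Eefsec delivers the selenocysteine tRNA. Selenium reaches the brain largely as the plasma protein Selenop, which is taken up through the receptor Lrp8. Many selenoproteins are redox enzymes in which selenocysteine sits in the active site. Selenov, Selenow, Selenot and Selenoh belong to a family with a thioredoxin-like fold, and in mice Selenov is known chiefly from testis.

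The annotated selenocysteine codons are shown because they are what defines these genes. They were read from GENCODE M21 transcripts on GRCm38. Capitals mark the selenocysteine codon TGA and, before it, any cysteine codon 1 or 3 codons upstream. Each stretch is 33 bases with the TGA at its centre, except for Txnrd1, whose coding sequence ends sooner.
Selenov: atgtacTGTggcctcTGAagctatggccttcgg
Selenow: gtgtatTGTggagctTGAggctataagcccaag
Selenot: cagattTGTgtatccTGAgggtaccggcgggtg
Selenom: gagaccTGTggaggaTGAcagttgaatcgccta
Selenoh: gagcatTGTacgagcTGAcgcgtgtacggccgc
Gpx1: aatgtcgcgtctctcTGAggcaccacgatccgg
Gpx4: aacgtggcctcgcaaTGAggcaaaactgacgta
Selenop: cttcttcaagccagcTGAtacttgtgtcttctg
Txnrd1: ctccagtctggcTGCTGAggttaa
The Selenov codon lies at chr7:28288486-28288488 on the minus strand, in exon 2 of 6, and is codon 255 of 328. In Selenow it is codon 13 of 88. Selenop has 10 such codons, and the first is shown. Selenov, Selenow, Selenot, Selenom and Selenoh share a cysteine codon 3 codons before the selenocysteine codon, and among all 24 selenoprotein genes 6 had one there. The Selenow stretch matched that of Selenov at 19 of 33 bases, the Selenot and Selenop stretches at 15, the Selenoh and Gpx1 stretches at 14, the Selenom stretch at 13 and the Gpx4 stretch at 8. Over 123 bases around the codon the matches were 55 for Selenow, 47 for Gpx1, 46 for Selenot, 38 for Selenom, 37 for Selenop, 35 for Selenoh and 32 for Gpx4. All these counts include the 3 bases of the TGA, on which the stretches were aligned. Those of Selenow, Selenot, Selenom and Selenoh also include the shared cysteine codon. How many matches chance gives was not computed. The match counts did not set Selenot and Selenoh, named above in the same family as Selenov and Selenow, apart from the remaining genes. In Txnrd1 the selenocysteine codon was the last but 1 before the stop codon, directly after a cysteine codon.

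Selenov (ENSMUSG00000046750.17) lies on chromosome 7 of GRCm38, from 28284652 to 28291186 on the minus strand, outside the duplicated segment. It was a low gene in every library. Counts were 73, 57, 121, 66, 119 and 47 in Dp16, 86, 84, 75, 114, 95 and 99 in Dp16_2xIFNRs, and 21, 28, 35, 20, 21 and 20 in WT. The lowest duplication library held 47 counts and the highest WT library 35, so neither duplication genotype overlapped with WT. In CPM, Dp16 libraries ran from 0.949 over a median of 1.44 to 2.12, Dp16_2xIFNRs libraries from 1.40 over 1.64 to 1.94, and WT libraries from 0.414 over 0.431 to 0.675. Means were 1.47 ± 0.425 CPM in Dp16, 1.65 ± 0.225 CPM in Dp16_2xIFNRs and 0.485 ± 0.105 CPM in WT (SD, n = 6 each).

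**Figure D1:**
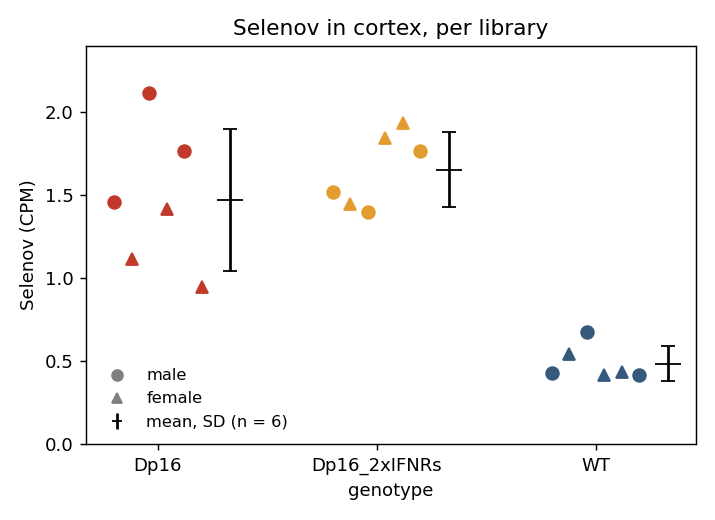
Selenov level in CPM (vertical axis) for each library of the 3 genotypes, with circles for males, triangles for females and the mean with SD beside each group. All 12 duplication libraries lie above the 6 WT libraries, whose highest value is 0.675 CPM.

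The difference from WT that chose the gene was 1.58 (SE 0.189) on the log2 scale in Dp16 and 1.77 (SE 0.188) in Dp16_2xIFNRs, which is 3.00-fold and 3.41-fold. Both comparisons share the WT libraries. Among the other selenoprotein genes the next highest fold in Dp16 was 1.42, for Dio3, and in Dp16_2xIFNRs it was 1.17, for Msrb1. Without Dp16 replicate 3 and WT replicate 5, the libraries with the most choroid plexus RNA, the Selenov log2 values were 1.46 in Dp16 and 1.75 in Dp16_2xIFNRs. That Dp16 library also had the highest Selenov level of its group. WT replicate 5 did not stand out in this way, with 0.433 CPM against a WT median of 0.431 CPM. The part of choroid plexus RNA in the Selenov values was not tested.

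The comparison of Dp16_2xIFNRs with Dp16, which asks what the copy number of the receptor genes changes, is not independent of the choice of Selenov either, since a gene about 3-fold higher in both genotypes has like levels in them. The log2 difference was 0.18 (SE 0.171), given with no test. All 6 Dp16_2xIFNRs libraries lay within the range of the Dp16 libraries.

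By sex, Selenov averaged 1.78 ± 0.329 CPM in Dp16 males and 1.16 ± 0.238 CPM in Dp16 females, and the 2 ranges, 1.46 to 2.12 CPM and 0.949 to 1.42 CPM, did not overlap. With 3 libraries each, such a separation is not rare by chance, and the share of all genes that show it was not computed. The highest male was Dp16 replicate 3, the library with the most choroid plexus RNA, whose part in this difference was not tested. In Dp16_2xIFNRs it averaged 1.56 ± 0.187 CPM in males and 1.74 ± 0.259 CPM in females. In WT the averages were 0.506 ± 0.146 CPM in males and 0.464 ± 0.0702 CPM in females (SD, n = 3 each). Over all genotypes the male to female log2 difference was 0.20 (SE 0.148) and did not pass (edgeR, adjusted p = 0.797), where 0.0641% of all genes were called. The difference between Dp16_2xIFNRs and Dp16 was lower in males than in females by 0.77 on the log2 scale, with an unadjusted edgeR p of 0.0226 for the interaction and an adjusted p of 1.00. This interaction was added after the data were seen.

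Since Selenov is known from testis, markers of male germ cells were read in the same libraries. Tnp1, Prm1, Prm2 and Acrv1, genes of late sperm development, had 0 counts in all 18 libraries. The summed level of the 8 markers ran from 5.24 to 8.67 CPM in Dp16, from 5.54 to 7.89 CPM in Dp16_2xIFNRs and from 4.44 to 6.55 CPM in WT. The germ cell gene Ddx4 had 730 counts in Dp16, 769 in Dp16_2xIFNRs and 570 in WT, summed over 6 libraries each. Dazl had 1054, 1055 and 836 counts in the same order, and Zpbp 320, 316 and 245. These sums are not scaled to depth, and the group totals were 321366422, 333521833 and 299142410 counts. Sycp1 had at most 1 count in a library. The ranges of the summed level overlap between the genotypes, and the part of the markers in the Selenov values was not tested.

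Levels per length, as RPKM (the count scaled to library total and gene length), set the genes in order. In WT, Selenow was highest at 606 RPKM, followed by Gpx4 at 143, Selenop at 119, Selenom at 81.9, Gpx1 at 51.4, Selenot at 42.5, Txnrd1 at 13.03, Selenoh at 10.2 and Selenov at 0.381 RPKM (means of 6 libraries). Gpx4 and Selenop overlapped in their ranges over libraries, as did Gpx1 and Selenot, while the other neighbours in this order did not. Selenow made up 46.2% of the summed RPKM of all selenoprotein genes in Dp16, 45.1% in Dp16_2xIFNRs and 47.4% in WT. Selenov made up 0.0913% in Dp16, 0.106% in Dp16_2xIFNRs and 0.0299% in WT, so it remained a minor member of the family in every genotype.

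**Figure D2:**
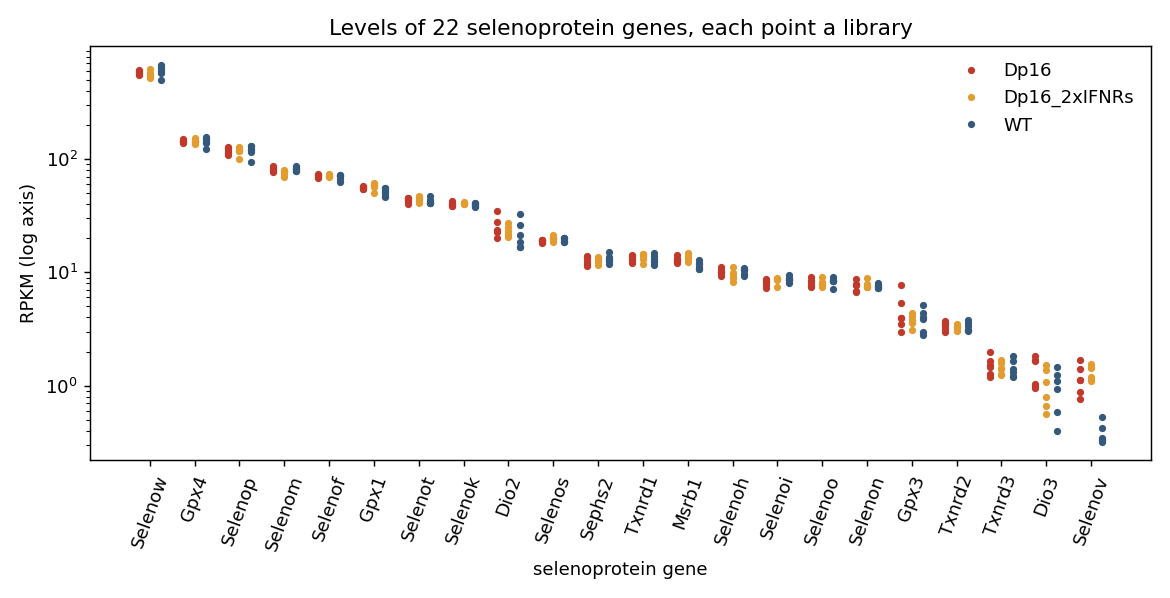
RPKM on a log axis for the 22 tested selenoprotein genes, ordered by level, with a point for each library of Dp16, Dp16_2xIFNRs and WT. Selenov is at the low end, and its WT points lie apart from those of both duplication genotypes.

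None of the other 8 listed genes passed the test in either duplication genotype against WT. The 95% intervals of their log2 differences lay between -0.19 and 0.24 in Dp16 and between -0.27 and 0.27 in Dp16_2xIFNRs. Their lowest adjusted p was 0.564 in Dp16 and 0.266 in Dp16_2xIFNRs (edgeR). Over all genes, 0.748% were called in Dp16 (140 of 18717) and 1.05% in Dp16_2xIFNRs (196 of 18717), and 0 of 8 genes is close to those shares. The median log2 difference of the 8 genes was -0.01 in Dp16 and -0.02 in Dp16_2xIFNRs, and that of all tested genes was 0.00 in both.

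Selenow, a small thioredoxin-fold protein abundant in muscle and brain, ran from 412 over 431 to 460 CPM in Dp16, from 387 over 401 to 468 CPM in Dp16_2xIFNRs and from 359 over 454 to 511 CPM in WT (lowest, median, highest). The groups overlapped. Its log2 difference from WT was -0.06 (SE 0.0664) in Dp16 and -0.13 (SE 0.0664) in Dp16_2xIFNRs. Selenot, a selenoprotein of the endoplasmic reticulum membrane, ran from 127 to 144 CPM in Dp16, from 126 to 147 CPM in Dp16_2xIFNRs and from 128 to 150 CPM in WT. Selenoh, a nuclear member of the same family, ran from 9.45 to 11.4 CPM in Dp16, from 8.56 to 11.7 CPM in Dp16_2xIFNRs and from 9.51 to 11.6 CPM in WT. The closest relatives of Selenov thus had overlapping levels in the 3 genotypes.

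Selenom, a redox protein of the endoplasmic reticulum, averaged 57.3 ± 2.51 CPM in Dp16, 53.8 ± 3.17 CPM in Dp16_2xIFNRs and 58.3 ± 3.17 CPM in WT (SD, n = 6 each). Its difference in Dp16_2xIFNRs, -0.12 (SE 0.0475) on the log2 scale, did not pass (edgeR, adjusted p = 0.325). Selenop, the selenium carrier, ran from 225 over 254 to 272 CPM in Dp16, from 209 over 256 to 276 CPM in Dp16_2xIFNRs and from 199 over 264 to 282 CPM in WT. The lowest WT value belonged to WT replicate 6, which was also low in glial and vessel markers, and whose part in the result was not tested. Without it the Selenop log2 difference was -0.08 in both genotypes and was not called.

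Gpx1, which reduces hydrogen peroxide with glutathione, averaged 60.2 ± 2.24 CPM in Dp16, 61.5 ± 4.59 CPM in Dp16_2xIFNRs and 55.5 ± 4.57 CPM in WT (SD, n = 6 each). The log2 difference was 0.12 (SE 0.0564) in Dp16 and 0.15 (SE 0.0564) in Dp16_2xIFNRs, with adjusted p of 0.564 and 0.266 (edgeR). WT replicate 6 was the lowest WT library for 7 of the 8 genes, all but Txnrd1. Without it the log2 difference of Gpx1 was 0.08 in Dp16 and 0.11 in Dp16_2xIFNRs, that of Selenow was -0.11 and -0.19, and none of the 8 genes was called. Gpx4, which reduces lipid hydroperoxides in membranes, averaged 183 ± 8.26 CPM in Dp16, 182 ± 8.004 CPM in Dp16_2xIFNRs and 184 ± 15.9 CPM in WT. The pseudogene copy Gpx4-ps2 held up to 322 counts in a library, and how reads shared with it were counted is not given in the sources used here. Txnrd1, the cytosolic thioredoxin reductase, averaged 54.2 ± 2.81 CPM in Dp16, 55.5 ± 3.54 CPM in Dp16_2xIFNRs and 53.4 ± 3.91 CPM in WT.

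Between Dp16_2xIFNRs and Dp16 none of the 8 genes passed, with 95% intervals between -0.25 and 0.16 on the log2 scale, and 0.0214% of all tested genes were called, 4 of 18717. Between males and females none passed either, with a lowest adjusted p of 0.792 (edgeR).

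**Figure D3:**
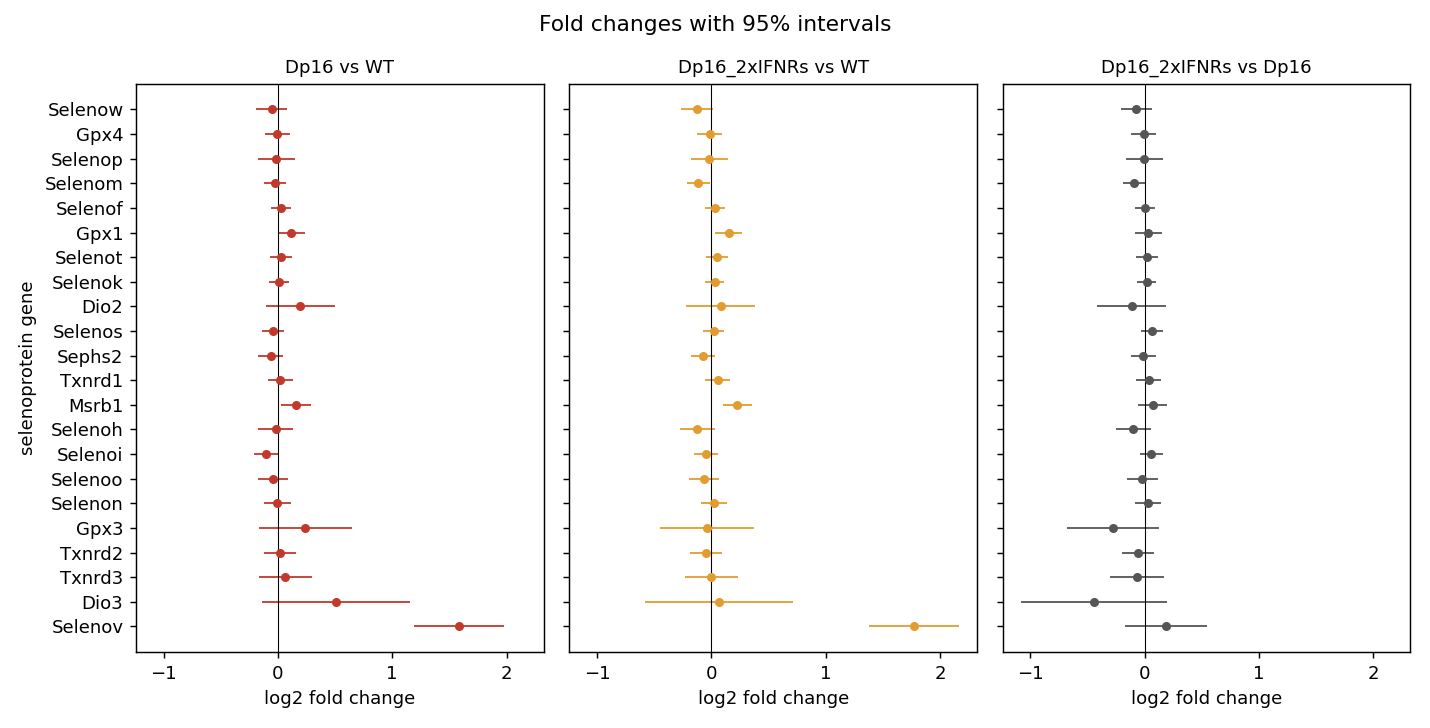
Log2 fold change (horizontal axis) with 95% interval for the 22 tested selenoprotein genes in Dp16 against WT, Dp16_2xIFNRs against WT and Dp16_2xIFNRs against Dp16. Selenov, chosen on the first 2 comparisons, lies at 1.58 and 1.77, and edgeR called no other selenoprotein gene.

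Of the 24 selenoprotein genes, 22 passed the filter. Dio1 had 1 count in all libraries together and Gpx2 had 0 to 6 counts per library. Of the 21 tested genes other than Selenov, none was called in any of the 4 comparisons by edgeR. At an unadjusted p under 0.05 there were 2 in Dp16 against WT, 3 in Dp16_2xIFNRs against WT, 0 in Dp16_2xIFNRs against Dp16 and 3 in males against females. Over all 18717 genes the shares at that p were 8.84%, 11.5%, 2.19% and 6.64% in the same order. DESeq2 called 1 of the 21, in Dp16_2xIFNRs against WT, and limma-voom called 0. That gene was Msrb1, a methionine sulfoxide reductase.

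Msrb1 had the smallest p of the 21 genes against WT. It ran from 14.9 over 16.1 to 17.8 CPM in Dp16, from 15.8 over 16.9 to 18.4 CPM in Dp16_2xIFNRs and from 13.2 over 14.4 to 16.5 CPM in WT. Both duplication genotypes overlapped with WT, and the Dp16 median lay inside the WT range. Its log2 difference was 0.16 (SE 0.0621) in Dp16, with an adjusted p of 0.416, and 0.23 (SE 0.0620) in Dp16_2xIFNRs, with an adjusted p of 0.0956 (edgeR). Under DESeq2 the adjusted p in Dp16_2xIFNRs was 0.0327, and without WT replicate 1 it was 0.0466 (edgeR). Dio3, which inactivates thyroid hormone, ran from 1.98 to 3.63 CPM in Dp16, from 1.14 to 3.09 CPM in Dp16_2xIFNRs and from 0.817 to 2.92 CPM in WT, and its adjusted p in Dp16 was 0.699. In males against females, Sephs2, which makes the selenium donor for selenocysteine, had a log2 difference of 0.15 (SE 0.0425, adjusted p = 0.707).

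The genes that make selenocysteine and supply selenium were read from a list of 17, of which 16 passed the filter. None was called in any comparison, and 0 and 2 of the 16 had an unadjusted edgeR p under 0.05 in Dp16 and in Dp16_2xIFNRs against WT, where the shares over all genes were 8.84% and 11.5%. The median log2 difference was -0.03 in Dp16 and 0.00 in Dp16_2xIFNRs. Lrp2, an endocytic receptor that takes up Selenop in kidney, averaged 0.564 ± 0.265 CPM in Dp16, 0.741 ± 0.243 CPM in Dp16_2xIFNRs and 0.350 ± 0.161 CPM in WT, with adjusted p of 0.590 and 0.158. For Eefsec, the elongation factor, the log2 difference in Dp16 was -0.10 (adjusted p = 0.592). Sars, the seryl-tRNA synthetase that charges the selenocysteine tRNA with serine, had one of 0.11 in Dp16_2xIFNRs (adjusted p = 0.272). Trnau1ap, which associates with the selenocysteine tRNA, averaged 10.3 ± 0.702 CPM in Dp16_2xIFNRs and 11.7 ± 1.05 CPM in Dp16 (adjusted p = 1).

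All 28 genes of the list of thioredoxin and glutathione partners were tested, and none was called in any comparison. At an unadjusted edgeR p under 0.05 there were 1 of 28 in Dp16 and 3 of 28 in Dp16_2xIFNRs against WT, beside the same 8.84% and 11.5% over all genes. Glrx, a glutaredoxin, averaged 20.1 ± 1.26 CPM in Dp16, 20.7 ± 1.10 CPM in Dp16_2xIFNRs and 22.2 ± 1.24 CPM in WT, with an adjusted p of 0.376 in Dp16. Nfe2l2, the transcription factor that drives many antioxidant genes, averaged 19.4 ± 2.62 CPM in Dp16, 20.03 ± 1.98 CPM in Dp16_2xIFNRs and 16.8 ± 3.15 CPM in WT, with adjusted p of 0.614 and 0.334. Prdx6, a peroxiredoxin, averaged 202 ± 18.8 CPM in Dp16, 205 ± 10.2 CPM in Dp16_2xIFNRs and 184 ± 21.8 CPM in WT, with adjusted p of 0.578 and 0.353. Keap1 went the other way, with 81.9 ± 4.08 CPM in Dp16, 79.2 ± 4.13 CPM in Dp16_2xIFNRs and 85.3 ± 4.56 CPM in WT. Its adjusted edgeR p was 0.801 and 0.369. The median log2 difference of the list was 0.00 in Dp16 and 0.04 in Dp16_2xIFNRs.

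The 5 nearest tested genes on each side of Selenov on chromosome 7 were compared in the same fit. In Dp16 against WT none of the 10 was called, where 0.748% of all genes were called. In Dp16_2xIFNRs against WT 1 was called, Dyrk1b, a protein kinase, which fell by 0.35 on the log2 scale to 23.7 CPM in Dp16_2xIFNRs, against 30.2 CPM in WT (edgeR, adjusted p = 0.00564), where 1.05% of all genes were called. In Dp16 it averaged 25.4 CPM, a log2 difference from WT of -0.25 (95% interval -0.38 to -0.11, adjusted p = 0.0894). Fbl, a nucleolar methyltransferase of ribosomal RNA, averaged 18.1 CPM in Dp16, 18.2 CPM in Dp16_2xIFNRs and 21.1 CPM in WT, with log2 differences of -0.22 and -0.21 and adjusted p of 0.0990 and 0.0941. The closest genes were Dll3, a Notch ligand 2367 bases away, and Eid2b on the other side. Dll3 averaged 1.56 CPM in Dp16, 1.39 CPM in Dp16_2xIFNRs and 1.28 CPM in WT, with adjusted p of 0.721 and 0.899. Eid2b averaged 19.3 CPM in Dp16, 18.6 CPM in Dp16_2xIFNRs and 18.5 CPM in WT. Gm31024, the farthest on the Eid2b side, averaged 1.5003 CPM in Dp16, 1.30 CPM in Dp16_2xIFNRs and 0.943 CPM in WT, with adjusted p of 0.139 and 0.306. Rps16 averaged 119 CPM in Dp16, 118 CPM in Dp16_2xIFNRs and 131 CPM in WT, with adjusted p of 0.506 and 0.301. The 95% intervals of Dyrk1b, Fbl and Rps16 lay wholly below no difference in both genotypes, and those of Gm31024 wholly above. Over all genes, 8.84% in Dp16 and 11.5% in Dp16_2xIFNRs had an unadjusted edgeR p under 0.05.

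**Figure D4:**
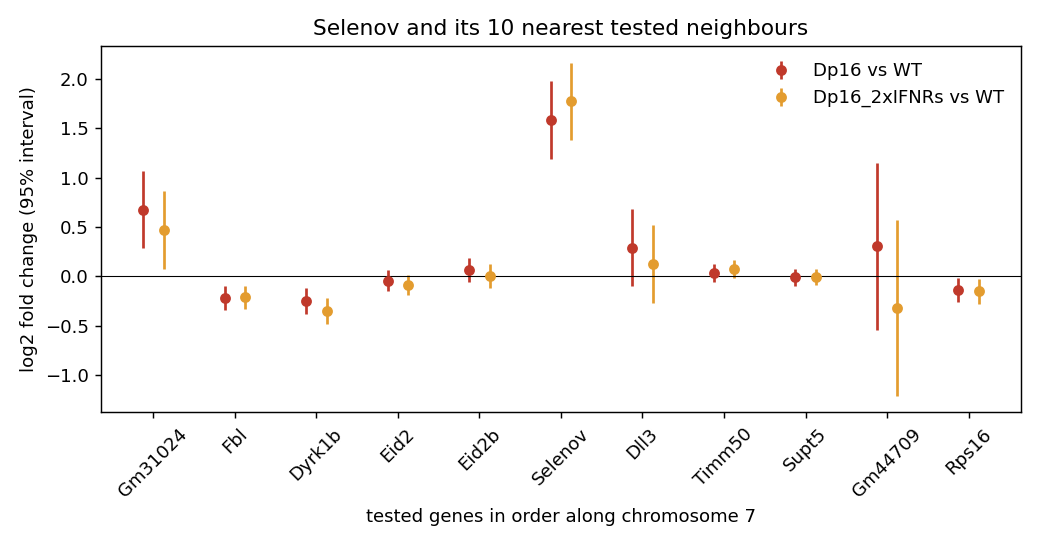
Log2 fold change with 95% interval for Selenov and its 10 nearest tested neighbours in their order along chromosome 7, in Dp16 and Dp16_2xIFNRs against WT. Selenov stands at 1.58 and 1.77, and of its neighbours Dyrk1b was called, in Dp16_2xIFNRs.

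The genes whose pattern was most like that of Selenov were sought by Pearson's correlation of log2 CPM over the 18 libraries, which share the genotype difference. The 8 highest were Cryzl1 (r = 0.947), Gart, Vps26c, Wrb, Pigp, Gabpa, Psmg1 and Mrpl39 (r = 0.926). All 8 lie in the duplicated segment of chromosome 16, which held 115 of the 18717 tested genes. Selenov was chosen as higher in both duplication genotypes, as the genes of the segment are, so this outcome follows from the choice. With the group means removed, the r of these 8 genes with Selenov ran from 0.240 to 0.455. Among the other selenoprotein genes it then ran from -0.27 for Gpx1 to 0.43 for Selenot. Outside the segment the highest were Sycp3 on chromosome 10 (9th place, r = 0.926), the nonagouti gene on chromosome 2 (12th place, r = 0.918) and Gm48678 on chromosome 12 (26th place, r = 0.889). With group means removed, r was 0.602 for Sycp3, -0.14 for nonagouti and 0.432 for Gm48678. These 3 genes were named after their values were seen. Among selenoprotein genes the highest r was 0.658, for Msrb1, and it was -0.06 with group means removed.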

How the data were processed

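TRIzol RNA was poly-A enriched and sequenced in pairs from libraries that keep the strand, per the labels' protocols. The submitters' processing notes name the build GRCm38, HTSeq 0.6.1, HISAT2 2.1.0 and SAMtools 1.5. The strand setting of the counting is not given in the sources used here. The authors deposited raw counts per gene, and RPKM values that equalled count over library total and gene length for 31735 of 31735 genes (relative tolerance 1e-06).

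Counts were filtered with filterByExpr by group (minimum count 10), normalized by TMM and tested with edgeR 4.0.16 (quasi-likelihood F test, robust, genotype and sex as terms, all 18 libraries) in R 4.3.3. Calls are genes with an adjusted p below 0.05 (Benjamini-Hochberg, 18717 genes). The common biological coefficient of variation was 12.2%, with 14 residual degrees of freedom. DESeq2 1.42.0, limma 3.58.1 (voom, and trend on RPKM) and the other alternatives are in the closing section. The fit was tested on simulated data.

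The members, gene lists and alternatives were chosen with earlier results of these data known. Named are the 24 selenoprotein genes, 5 tested neighbours on each side of Selenov, and the 8 genes of highest correlation with it. Of the 2 pathway lists, in which no gene was called, some genes of small p in single comparisons are named. Exceptions chosen after their values were seen are the 3 most correlated genes outside the segment and the genotype by sex interaction. The fit without both Dp16 replicate 3 and WT replicate 5 was also not planned.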

Additional observations from a re-analysis of the deposited data

Results flagged for a closer look

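In 6 of 66 groups of 6 libraries a single library lay farther from the others than Dixon's 95% critical value allows, and chance gives about 1 in 20 groups. Dp16_2xIFNRs replicate 1 was the highest of its group for Selenow, at 468.1 CPM against 386.6 to 417 CPM in the others, and for Gpx4, at 197.5 CPM against 175 to 180.7 CPM. The same library was the lowest for Selenoi, at 51.43 CPM against 56.86 to 59.39 CPM. Dp16_2xIFNRs replicate 4 was the highest for Selenon, at 30.42 CPM against 25.15 to 26.68 CPM. WT replicate 6 was the lowest WT library for Selenop, at 198.9 CPM against 253.1 to 282.1 CPM, and WT replicate 5 for Selenoo, at 16.8 CPM against 20.01 to 21.14 CPM.

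A rule on opposed sexes was met in 9 of 66 cases. In these, all males of a genotype lay on one side of the male mean of the genotype compared with. All females lay on the opposite side of its female mean. How often chance meets the rule was not computed, and cases that share a gene or the WT libraries are not independent. Differences are in CPM. Of 66 genotype by sex interactions tested with edgeR 0 were called, with a lowest adjusted p of 0.826. In Dp16_2xIFNRs against Dp16, Selenov differed by -0.2177 in males and 0.5818 in females. In Dp16 against WT, Selenow differed by 28.8 in males and -63.7 in females, Selenop by 22.27 and -28.93, Gpx4 by 12.27 and -14.13, and Selenof by 7.36 and -3.633. In Dp16_2xIFNRs against WT, Gpx4 differed by 11.33 in males and -15.4 in females, Txnrd2 by 0.45 and -1.17, Selenof by 6.027 and -1.833, and Selenoi by -5.45 and 1.83. The unadjusted edgeR p of the interaction was 0.0226 for Selenov, 0.0172 for Selenow, 0.0397 and 0.0372 for Gpx4, 0.0643 for Selenop, 0.0789 and 0.195 for Selenof, 0.136 for Txnrd2 and 0.0742 for Selenoi, and every adjusted p was 0.826 or higher. WT replicate 6, which was low in Selenop and in glial markers, is among the 3 WT males that these comparisons with WT use.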

How the results depend on the processing

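Each comparison of genotypes was recomputed under 31 alternatives, among them the unplanned fit without both Dp16 replicate 3 and WT replicate 5. Selenov was chosen on its values against WT, so its own calls there say nothing of stability. Besides Selenov, 0 selenoprotein genes were called in Dp16 against WT and in Dp16_2xIFNRs against Dp16. In Dp16_2xIFNRs against WT the called genes including Selenov numbered 1, and 2 with Msrb1 under DESeq2 and under limma on RPKM with a pseudocount of 0.1 or 0.01. Leaving out 1 library at a time gave 1 to 2, with 2 without WT replicate 1. The Selenov log2 difference ran from 1.37 to 1.74 in Dp16 against WT and from 1.56 to 2.05 in Dp16_2xIFNRs against WT. All 976 values of the other 8 listed genes stayed within the replicate spread, none was called, and 54 changed sign. That spread is the SD of single libraries within the genotypes, in log2 CPM. Leaving out 1 library moves a group mean by less than that, so those settings could hardly fail this mark and say little of stability. The cause of the changes was not tested.

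The labels do not say that replicate numbers mark a shared litter or day, and the numbers were not taken to pair the samples because not every same-numbered pair had a correlation over 0.1 (11 of 18 had, r from -0.181 to 0.428). As a hint from the data, 11 of 18 libraries correlated best with their own number, and the 3 pairs of number 1 had r from 0.308 to 0.428. The replicate 1 libraries of all 3 genotypes also carry the same number in their sample descriptions. Several other description numbers are shared between genotypes, and the meaning of these numbers is not stated. Libraries that share a description number were of the same sex and of the same or nearly the same age. The correlations above went by replicate number, and most of those pairs did not share a description number. They therefore do not decide whether libraries are paired by description number. Whether libraries of different genotypes share a source cannot be told from the labels. With the replicate block no selenoprotein gene besides Selenov was called, so that the numbers called with it were 1, 1 and 0 in the genotype comparisons and 0 between the sexes.

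Calls over all genes numbered 140 in Dp16 against WT, 250 under DESeq2 and 33 with the number in the sample descriptions as a block. In Dp16_2xIFNRs against WT they numbered 196, 405 under DESeq2, 304 with the replicate block, 60 with the description number, 125 without WT replicate 2 and 121 without Dp16_2xIFNRs replicate 2. They numbered 4 in Dp16_2xIFNRs against Dp16 and 2 with the description number, and 12 between the sexes and 21 under DESeq2. In the fit with the description number, libraries whose number no other library shares do not inform the genotype differences. Few Dp16 and WT libraries share a number, and fewer residual degrees of freedom remain than in the main fit. The lower numbers of calls in that fit cannot be told apart from this loss, and their cause was not tested. At 20 to 35 counts per WT library, counting error limits Selenov values more than those of the other 8 genes.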
